A study of Caenorhabditis elegans with 2 samples.

Results

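Sites of HIM-1 on the X chromosome that lay away from gene promoters were examined in Caenorhabditis elegans. HIM-1 is the SMC1 subunit of cohesin, the ring complex that holds sister chromatids together and folds chromosomes into loops. The sites were the X entries of the deposited list thresholded by irreproducible discovery rate (IDR) whose summit lay more than 500 bp from every 5′ end of a protein-coding transcript and more than 250 bp from every tRNA gene. A total of 208 of the 1797 entries of that list met this rule, out of 406 on X. The rule used positions and no signal values, but an entry is in the list only because its pooled signal was high. The remaining X entries were 136 promoter entries and 62 entries near tRNA genes, and the same rule gave 713 entries on the 5 autosomes.

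The worms were hermaphrodites of strain YL576, which stably expresses HIM-1 with a C-terminal GFP-FLAG tag, collected whole as L4 larvae or young adults 51 hours after starved L1 larvae were released. All samples belonged to 1 group with 2 biological replicates, and there was no second condition. Chromatin was immunoprecipitated with an antibody that the labels' free text gives as anti-GFP and their antibody field as him-1, and sequenced (ChIP-seq). Both replicates were set against the same control, and no immunoprecipitation from untagged worms was analysed here. Because whole animals were used, germline and somatic nuclei cannot be told apart. The signal of an entry is the authors' value on a scale that the sources used here do not name, and read depth is unknown. With 1 group, no difference described below was tested, and intervals of shares are 95% Wilson intervals that cover counting error only.

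In C. elegans hermaphrodites, the dosage compensation complex lowers expression from both X chromosomes. It contains a condensin, a relative of cohesin that is also built on SMC proteins, and is recruited to X at discrete sites, many of which hold copies of a motif named MEX. The strongest of these recruitment sites also mark boundaries between domains of the folded X chromosome. None of these recruitment data were analysed here, and the word counts below come from the reference sequence alone.

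The sequences of the 5 highest sites are shown first because they had the largest signals. Each runs from 100 bp before to 100 bp after the summit, on the plus strand of the RefSeq copy of WBcel235 (the ce11 build of the lists), and each is named by the nearest 5′ end of a protein-coding gene. Capitals mark the exact words GCGCAGGG (called the MEX core here), GAGAGAGA (GAGA repeat), GGGCGG (Sp1-like) and TTTGGCGC (E2F-like) on either strand. In the cest-16 site, the E2F-like word overlaps the first MEX core. The sites nearest K02D3.1 and ZK899.6 hold none of the 4 words.

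cest-16 site, chrX:6296489-6296689: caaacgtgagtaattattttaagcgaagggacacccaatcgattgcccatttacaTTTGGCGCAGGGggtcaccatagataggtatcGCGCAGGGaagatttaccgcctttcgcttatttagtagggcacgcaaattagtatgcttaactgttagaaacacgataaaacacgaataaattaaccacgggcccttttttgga
W02H3.3 site, chrX:11094082-11094282: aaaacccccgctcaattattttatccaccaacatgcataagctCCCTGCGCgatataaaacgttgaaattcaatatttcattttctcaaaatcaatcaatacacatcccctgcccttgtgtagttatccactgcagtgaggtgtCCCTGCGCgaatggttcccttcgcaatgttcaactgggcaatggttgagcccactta
F20B6.9 site, chrX:4209189-4209389: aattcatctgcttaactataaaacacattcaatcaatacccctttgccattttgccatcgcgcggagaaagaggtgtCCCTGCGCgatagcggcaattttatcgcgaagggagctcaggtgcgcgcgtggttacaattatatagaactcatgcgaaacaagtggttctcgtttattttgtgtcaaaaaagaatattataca
K02D3.1 site, chrX:13700750-13700950: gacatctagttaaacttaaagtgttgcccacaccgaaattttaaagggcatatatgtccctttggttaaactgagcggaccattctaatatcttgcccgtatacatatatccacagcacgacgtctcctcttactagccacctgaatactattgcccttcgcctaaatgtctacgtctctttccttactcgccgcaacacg
ZK899.6 site, chrX:9465760-9465960: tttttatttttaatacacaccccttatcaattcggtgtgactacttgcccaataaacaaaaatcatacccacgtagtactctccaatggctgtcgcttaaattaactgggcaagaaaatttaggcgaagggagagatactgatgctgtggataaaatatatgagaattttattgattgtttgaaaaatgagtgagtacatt

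A further 4 sites are shown as the highest others that hold each of the 4 words named above. The xol-1 site carries 2 MEX cores in opposite orientations, while the tps-1, sms-2 and daf-12 sites, which rank lower, carry a GAGA repeat, an Sp1-like word and an E2F-like word. The first has a GC content of 36.3%, and the other three have 52.7%, 54.7% and 57.7%.

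xol-1 site, chrX:8036320-8036520: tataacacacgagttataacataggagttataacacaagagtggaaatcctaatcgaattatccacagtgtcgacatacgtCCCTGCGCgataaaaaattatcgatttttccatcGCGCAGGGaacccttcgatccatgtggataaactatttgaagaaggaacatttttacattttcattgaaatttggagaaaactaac
tps-1 site, chrX:17479929-17480129: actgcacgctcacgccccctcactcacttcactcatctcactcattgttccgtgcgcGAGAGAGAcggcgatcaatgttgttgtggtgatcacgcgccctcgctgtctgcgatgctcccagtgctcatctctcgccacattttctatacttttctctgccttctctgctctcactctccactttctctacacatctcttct
sms-2 site, chrX:949620-949820: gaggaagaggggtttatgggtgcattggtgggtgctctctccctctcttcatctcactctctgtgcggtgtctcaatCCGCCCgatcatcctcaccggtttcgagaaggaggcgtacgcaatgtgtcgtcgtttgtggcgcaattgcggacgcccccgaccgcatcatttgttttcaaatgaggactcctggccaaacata
daf-12 site, chrX:10637471-10637671: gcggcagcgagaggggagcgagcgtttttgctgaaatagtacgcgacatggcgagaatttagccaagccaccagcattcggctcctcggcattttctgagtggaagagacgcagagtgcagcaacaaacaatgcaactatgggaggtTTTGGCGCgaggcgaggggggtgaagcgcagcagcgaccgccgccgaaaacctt

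The signal of the 208 sites ran from 102.0 to 909, with a median of 153.7 and quartiles of 121 and 225. A small number of sites stood far above the others. The 17 highest had signals of 436 to 909 and held 26.2% of the summed signal of all 208, and the 25 highest held 32.6%. The number 17 was set after the values were seen, at the point where GC content changed as described below, so it is a description and no test. In the plot of signal by rank, the curve is steep over these sites and falls slowly from about rank 50 on.

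**Figure D1:**
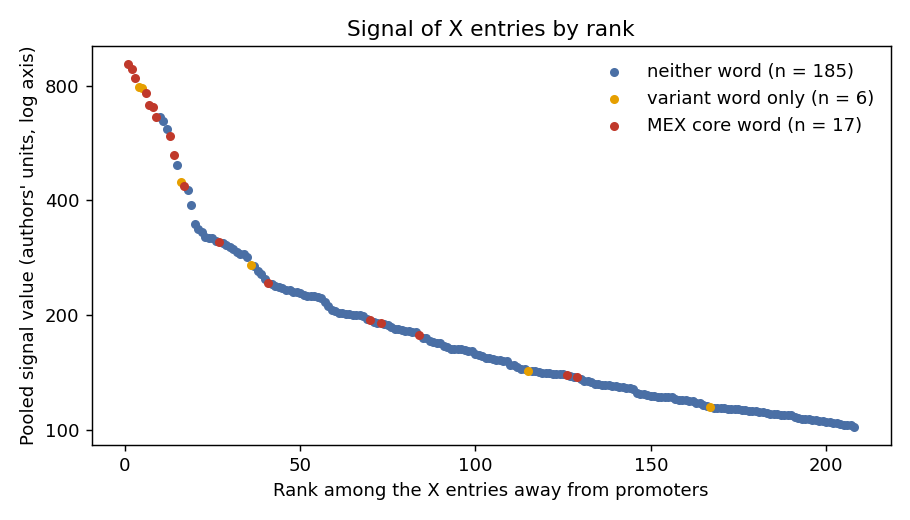
Pooled signal value (log axis) of each of the 208 X sites against its rank, coloured by whether the MEX core word, only its variant word or neither lies within 100 bp of the summit. Most of the 17 sites between 436 and 909 carry a coloured point, and the 185 sites with neither word fill most of the lower ranks.

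The highest site, at chrX:6296296-6296816 (summit 6296589), had a pooled signal of 909, with 593 in replicate 1 and 324 in replicate 2. It ranked second in the list as a whole and in both replicates' own lists. It lies in intron 7 of 7 of mom-1, which encodes a protein needed to secrete Wnt ligands, and 3353 bp upstream of cest-16. The site nearest W02H3.3, at chrX:11093921-11094384, followed with 882 (572 and 320.3 in replicates 1 and 2), and the site nearest F20B6.9, at chrX:4209032-4209468, with 836 (540.2 and 304). Both lie outside protein-coding genes, and the replicates placed their summits within 21 bp of each other. The site at chrX:13700669-13701099, 6057 bp upstream of K02D3.1, had 794 in the pooled list and 556 in replicate 1 but 235.5 in replicate 2. It ranked 4 in replicate 1 and 19 in replicate 2, so its order among the highest sites was not stable between replicates.

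The site nearest ZK899.6, at chrX:9465660-9466069, reached 789.6 (521 and 276 in the replicates). The xol-1 site, at chrX:8036206-8036676, had 766 (499.8 and 268) and lies upstream of xol-1 at 4893 bp; xol-1 sets male fate and blocks dosage compensation. The site at chrX:14525655-14526139, 704 bp upstream of nspc-17, a gene of a nematode-specific peptide family, had 712 (444 and 287). These 3 sites ranked 7 to 12 in replicate 1 and 9 to 12 in replicate 2. The next site, at chrX:2996904-2997327 in the last of 6 introns of Y41G9A.17, had 704 (446 and 259). The deposited list gives the same interval again with a summit 205 bp away and a signal of 243, so the 2 entries are not separate regions.

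Sites nearest gtr-1 (chrX:806547-806835, 662; 389 in replicate 1 and 260.3 in replicate 2) and F19H6.5 (chrX:12362967-12363330, 662; 429 and 236) had nearly equal pooled signals. Sites nearest T27A8.7 (645), F55G7.5 (614) and F22H10.2 (591) also lay outside protein-coding genes, 1051, 1378 and 2584 bp downstream of those 5′ ends. The site at chrX:5429453-5429630, with 526 (340.1 and 179), was the only one of the 25 highest in coding sequence. It lies in pks-1, a polyketide synthase gene, and 15197 bp from the nearest 5′ end, the largest distance among the 208 sites. The site 586 bp upstream of ftt-2, had 496 (324 and 181), and it lies 16 bp from the non-coding RNA gene F52D10.7. The sites upstream of fbxb-58, an F-box gene, and ins-39, an insulin-like peptide gene, had 447 (300.0 and 142) and 436 (303 and 149.6) and complete the 17.

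Below these, from rank 18 to 25, signals ran from 318 to 427. The highest, at chrX:11031063-11031532 in intron 2 of ldb-1, a LIM domain binding gene, had 427, with 249 in replicate 1 and 182 in replicate 2. Sites near ain-1, which acts in microRNA silencing (389; 218 and 170.2), and tps-1, a trehalose synthesis gene (348; 206 and 137), followed. The daf-12 site, with 331 (223 and 120.5), lies in the first intron of daf-12, a nuclear hormone receptor gene of dauer formation. The sites nearest C30E1.4 (337), sms-2, a sphingomyelin synthase gene (321), F56C3.1 (319) and apa-2, a subunit gene of the clathrin adaptor (318), complete the 25. The lowest of the 208 lay in introns of unk-1 (102.0), irk-3, a potassium channel gene (102.7), and mbl-1, the muscleblind gene (102.9).

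In the list as a whole, 18 of the 208 sites were among the 50 highest of the 1797 entries, a rank that 2.78% of all entries have by definition. When the same rule was applied to each replicate's own list, 18 of the 50 highest entries met it in replicate 1 and 17 in replicate 2. The upper end of the signal range and the middle of it gave different pictures. The median signal was 153.7 for these sites and 142.3 for autosomal entries of the same rule, a ratio of 1.08. The ratio was 1.02 when the 17 highest sites were left out, a setting chosen after seeing the data. In the autosomal set of 713, 4 entries reached the signal of the 17th site, and so did 2 of the 136 X promoter entries and 2 of the 62 X entries near tRNA genes. Over the whole list, 19 entries outside the 208 sites reached it, counting these.

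Both replicates contained an entry at each of the 208 sites. Of these, 159 (76.4%, 95% interval 70.2 to 81.7) overlapped one of the 1797 highest entries of both replicates, against 75.9% of all optimal entries, so this share is near the background. All 25 highest sites did so, as did 75 of 75 at ranks 26 to 100, while 54.6% of the sites below rank 100 did. Ranks follow the pooled signal, and the replicates' signals sum to a median of 1.01 times that signal. This fall with rank is therefore largely built in and is no support for the highest sites. Replicate 1 had the larger signal at 198 of the 208 sites. The median ratio of replicate 1 to replicate 2 was 1.57 over the sites and 1.39 over autosomal entries of the same rule. Among the 17 highest sites it was 1.87, with a range of 1.495 to 2.36, and each of the 17 exceeded the median of all optimal entries, 1.41. The 19 other entries with a signal as high had a median ratio of 1.49 and ranged from 1.08 to 2.09. Because depth is unknown, the level of a ratio cannot be read by itself. The spread of the ratios and their order between sets can be described, and the differences between sets were not tested. The log2 ratio had a standard deviation of 0.15 over the 17 highest sites, 0.41 over the other 191 sites and 0.43 over autosomal entries of the same rule. This spread rose as signal fell, with 0.25 at ranks 18 to 25, 0.35 at ranks 26 to 100 and 0.46 below rank 100. The narrow spread of the 17 therefore cannot be told apart from their high signal.

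**Figure D2:**
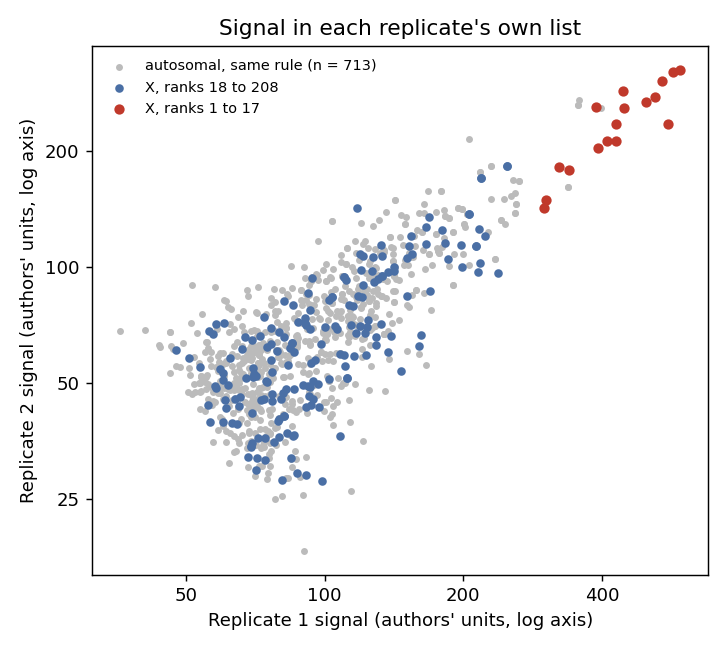
Signal of the highest overlapping entry in replicate 2 against that in replicate 1 (log axes), for the 17 highest X sites, the other 191 and the 713 autosomal entries of the same rule. The 17 highest lie in a narrow band at the upper right, and 8 of the other X sites share a replicate entry with one of them and are hidden beneath it.

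The sites with the most unequal replicates were all of low signal. The site nearest F27D9.12 had a pooled signal of 122, with 98.8 in replicate 1 and 27.8 in replicate 2, a ratio of 3.55. The sites nearest ugt-50, a glucuronosyltransferase gene, and hlh-29 had ratios of 3.15 and 2.98. At the other end, the sites nearest gob-1, scd-1 and phat-6 had ratios of 0.780, 0.816 and 0.823, with pooled signals of 108, 122 and 129. Spearman's rho of the replicates' signals was 0.800 over the 208 sites and 0.691 over the 713 autosomal entries. These are descriptions across sites that share libraries and a control, and 36 of the sites share a replicate entry with another site because they overlap it. In 8 cases a lower site took the replicate entry of one of the 17 highest, which gives it a replicate 1 value above its own pooled signal. The replicates' summits were a median of 25 bp apart, and within 50 bp at 16 of the 17 highest sites and at 130 of the other 191.

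The entries were called from sequence that is almost entirely unique. Of the 208 sites, 205 (98.6%) had at least 90% of the 31-base words within 100 bp of the summit present at 1 place in the genome, against 95.7% of autosomal entries of the same rule. The exceptions were the sites near spat-3, with 72.5%, and the 2 sites near hlh-29, with 53.2% and 70.8%.

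The MEX core word was found within 100 bp of the summit at 17 of the 208 sites (8.17%, 95% interval 5.17 to 12.7), against 1.17% of all 1797 entries. It was found at 2 of the 713 autosomal entries of the same rule (0.281%, 0.0770 to 1.02), at 2 of the 136 X promoter entries and at none of the 62 X entries near tRNA genes. Of windows of the same length tiled along X, 0.0851% held it. The word was concentrated at the top of the signal range. It was present at 10 of the 25 highest sites (40%, 23.4 to 59.3), at 5 of the 75 at ranks 26 to 100 and at 2 of the 108 below. Without the 17 highest sites the share was 3.66%. The 21 copies at the 208 sites lay a median of 19 bp from the summits. The farthest was 65 bp away, but only 100 bp on each side was searched. Within 200 bp the word was at 9.62% of sites, so some copies lie further out.

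**Figure D3:**
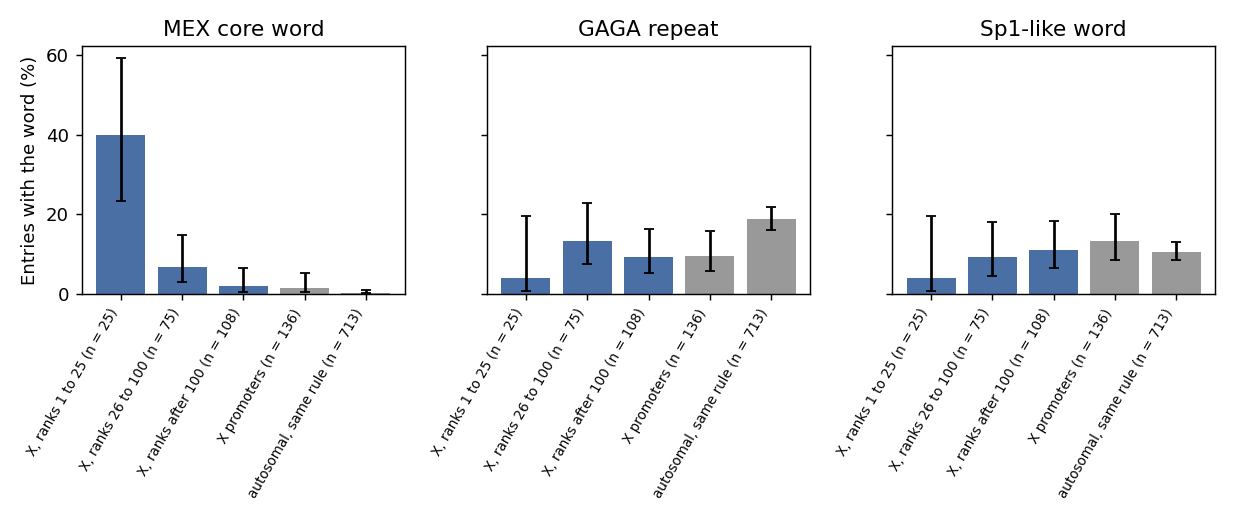
Percent of entries with the MEX core word, the GAGA repeat or the Sp1-like word within 100 bp of the summit, for X sites by rank, X promoter entries and autosomal entries of the same rule (bars, share; lines, 95% Wilson interval). The MEX core bar falls from 40% in the 25 highest X sites to 1.85% below rank 100, while the other two words show no such fall.

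Among the sites with the core, 4 had 2 copies. They were the cest-16 site, with copies 28 bp apart in the same orientation, the W02H3.3 site (101 bp, same orientation), the gtr-1 site (76 bp, same orientation) and the xol-1 site (34 bp, opposite orientations). The paired entries of the Y41G9A.17 intron each carry a copy, and these lie 175 bp apart. Outside the 25 highest, the core was found at the sites nearest col-185, a collagen gene (signal 311), Y41G9A.17 (243), T24D8.6 (194), dpy-23, a clathrin adaptor gene (190.3), stn-2, a syntrophin gene (177), WBGene00020828 (139.5) and svh-5 (137).

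The bases beside the 21 core copies were read to see how far the shared sequence extends. The base before the core was C and the one before that T in 16 of 21 copies each (76.2%), and the base after the core was A in 15 (71.4%), while no other flanking position reached 60%. This gives the 11-base word TCGCGCAGGGA. The copies below carry it in full at sites not shown above, with 12 bases on each side of the core, which is in capitals, read on the strand of the core.

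nspc-17 site: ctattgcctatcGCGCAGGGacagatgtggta
Y41G9A.17 site, higher entry: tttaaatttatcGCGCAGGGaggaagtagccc
Y41G9A.17 site, lower entry: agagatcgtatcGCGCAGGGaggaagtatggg
F22H10.2 site: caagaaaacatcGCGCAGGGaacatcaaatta
col-185 site: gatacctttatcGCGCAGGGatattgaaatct

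The 11-base word occurs 13 times on X and 2 times on the autosomes. On X, 11 of the copies lie within 100 bp of the summit of one of the 208 sites. Since the word was derived from those sites, this is a description and no support. Of the other 2 copies on X, the copy at chrX:11899364-11899374, 1229 bp upstream of Y62H9A.9, lies 24 bp from the summit of an entry of the pooled list that ranked 2513 there, with a signal of 84.7, below the lowest signal of the 208 sites. The copy at chrX:5859931-5859941, 2772 bp upstream of ctbp-1, lies in no entry of the pooled list, although that list holds 12228 entries including background. The 2 autosomal copies lie in coding sequence on chromosomes III and V, and neither is in an entry of the pooled list. The shorter core is common by comparison, with 81 copies on X and 233 on autosomes, of which 21 and 2 were at sites of the rule. Inside entries of the pooled list lay 31 of the 81 copies on X and 21 of the 233 on autosomes. The share of sequence that pooled entries cover is not given here, so such counts are shown without that background.

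A word that differs from the core by a substitution, GCGAAGGG (C4A, counted from the 5′ end of the core), was among the 10 words of 8 letters with the largest excess over the other optimal entries. It was found at 12 of the 208 sites (5.77%), at 18 of all 1797 entries (1.00%), at 1 of the 713 autosomal entries of the same rule and in 0.155% of tiled X windows. Over the genome, 26 of its 140 copies on X and 35 of its 491 autosomal copies lay inside entries of the pooled list. Because it was picked for this excess, the counts are descriptive. Of the 17 highest sites, 9 held it, 6 of them together with the exact core, and 13 held at least 1 of the 2 words. Those with only the variant were the K02D3.1, ZK899.6 and fbxb-58 sites. Their best matches to the 11-base word had 4, 3 and 1 mismatches, in that order. A match with at most 4 mismatches was at 88.5% of all entries, and with at most 3 at 33.6%. Of the 17, the 4 with neither word were the F19H6.5, T27A8.7, F55G7.5 and ftt-2 sites. The T27A8.7 and F55G7.5 sites each held a match to the 11-base word with 1 mismatch, while the best match at the F19H6.5 site had 4 and that at the ftt-2 site 5. Of the 8 sites at ranks 18 to 25, none held either word, but the tps-1 site also held a match to the 11-base word with 1 mismatch.

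The 17 highest sites were set apart by their GC content, so their lower values are how they were chosen and not a result. The median GC content of the window around the summit was 47.5% over the 208 sites and 46.8% over autosomal entries of the same rule, against 34.8% in tiled X windows. In the 17 highest sites it was 41.8%, ranging from 31.3% to 45.3%. At ranks 18 to 25 the median was 54.7%, and 7 of the 8 sites had at least 51%, the exception being the F56C3.1 site with 35.3%. Over all 191 sites below the 17 the median was 48.3%, with a range of 23.9% to 62.2%. The 19 other optimal entries with a signal as high as the 17 had a median of 45.8%, and 8 of them were below 45%. The highest GC values among the 25 belonged to the daf-12 (57.7%), apa-2 (56.2%) and ldb-1 (55.2%) sites.

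**Figure D4:**
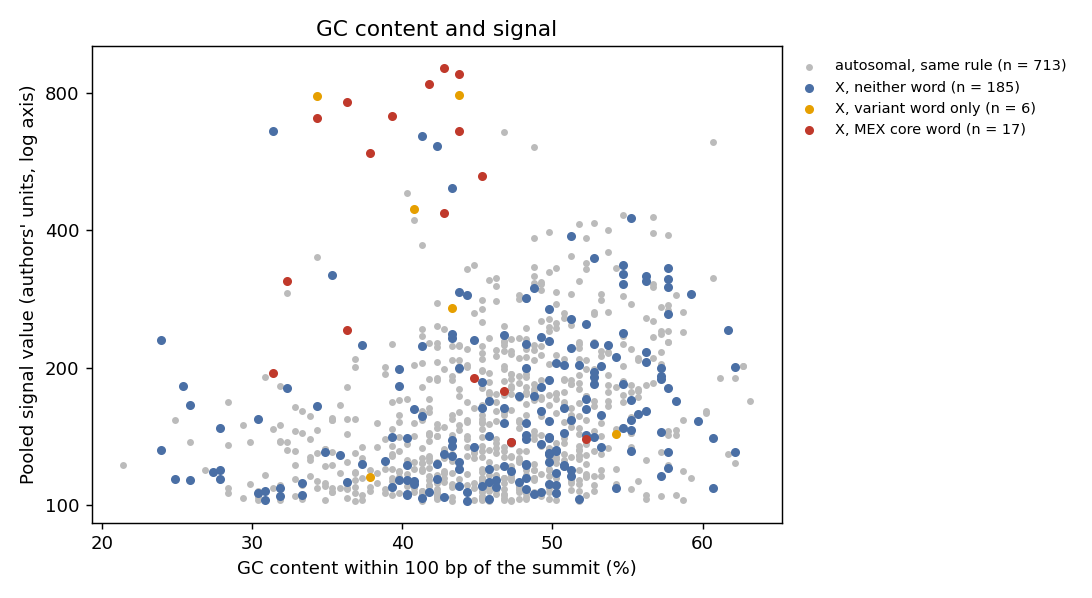
Pooled signal (log axis) against GC content within 100 bp of the summit for the 208 X sites, coloured by the MEX core and variant words, and for the 713 autosomal entries of the same rule. The 17 X sites of highest signal lie between 31.3% and 45.3% GC, to the left of most other points.

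**Figure D5:**
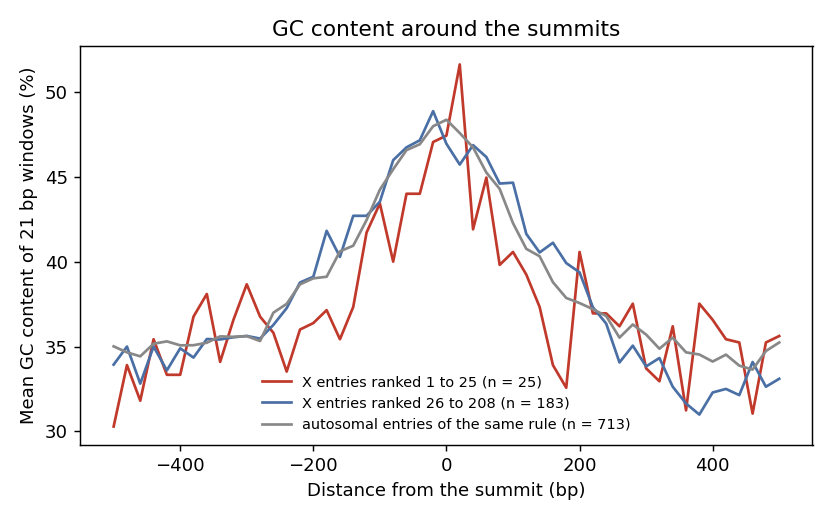
Mean GC content in 21 bp windows against distance from the summit for X sites ranked 1 to 25, those ranked 26 to 208 and autosomal entries of the same rule. All 3 curves peak near the summit, at 47.4%, 46.9% and 48.4% at distance 0, and fall to between 30.3% and 35.6% at 500 bp on either side.

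The GC peak at the summit was local in each set of sites. At 500 bp before the summit on the plus strand, mean GC content was 30.3% for the 25 highest sites and 33.9% for the others, and at 500 bp after it the order was the opposite, with 35.6% and 33.1%. The GAGA repeat was present at 21 sites (10.1%, 95% interval 6.70 to 14.9), against 13.1% of all entries and 18.8% (16.1 to 21.8) of autosomal entries of the same rule. It was at 9.56% of X promoter entries, 6.45% of X entries near tRNA genes and 1.12% of tiled X windows. The Sp1-like word was found at 9.62% of sites, at 11.2% of all entries, at 10.5% of autosomal entries of the same rule and in 2.45% of tiled X windows. None of the 17 highest sites held either word, but the 95% interval of 0 of 17 reaches 18.4% and includes the shares over all sites and all entries. The 17 were also set apart by low GC content, so the absence of a word made only of G and C is tied to how they were chosen. The E2F-like word was at 1.92% of sites, 1.22% of all entries and 0.508% of tiled windows. The E-box (CACGTG) was at 3.37%, 4.06% and 2.64%, and the CRE (TGACGTCA) at 0.962%, 1.56% and 0.744%. The GATA word (AGATAA) was at 7.69% of sites and 5.79% of all entries but at 12.5% of tiled windows. For each of these 4 words the share over all entries lay within the 95% interval of the share over the sites. The short word GCAGGG, which lies within the MEX core, was at 16.8% of sites, 6.96% of all entries, 5.47% of autosomal entries of the same rule and 2.15% of tiled windows. The word CCCTCC was at 17.3%, 13.6%, 15.1% and 3.47%. The tRNA B box (GTTCGANNC) was at none of the 208 sites, at 2.66% of autosomal entries of the same rule and at 115 of all 1797 entries, which include those near tRNA genes.

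The highest sites also had intervals of irregular width. Of the 208 entries, 187 were 470 bp wide, while 15 of the 17 highest were not and ranged from 178 to 521 bp. This was shared by other entries of high signal, since 17 of the 19 other optimal entries at that level had another width too. Among the autosomal entries of the same rule, 9 of 713 did.

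The sites were divided among gene features much as the list as a whole. Their distances to 5′ ends are shaped by the rule and cannot be set against the whole list in this way. A total of 142 of the 208 summits lay outside protein-coding genes (68.3%, 95% interval 61.7 to 74.2), against 67.4% of all entries, and 58 lay in introns (27.9%, 22.2 to 34.3), against 25.6%. UTRs held 5 and coding sequence 3. Autosomal entries of the same rule had 62.4% outside genes and 31.8% in introns, and the difference was not tested. The intronic sites fell in 43 genes, and 19 of the 58 were in a first intron, with a median intron length of 2472.5 bp. Genes with 3 intronic entries were ldb-1, lin-14, a heterochronic gene that sets larval timing, unc-9, a gap junction innexin gene, and unk-1. In ldb-1 and in unc-9, a pair of these entries overlaps and shares its replicate entries, so they are not all separate regions. The 2 higher lin-14 sites had signals of 301 in intron 3 and 268 in intron 1. In coding sequence, the pks-1 site was followed by sites in phat-6 (129) and nhr-40, a nuclear hormone receptor gene (113). In UTRs the highest were in R04E5.9 (131), mdl-1, a Mad-like transcription factor gene (123), and T07F12.1 (119.6).

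The median distance to the nearest protein-coding 5′ end was 1985 bp, with quartiles of 1114 and 3477 bp, and 29 sites (13.9%) were more than 5 kb away, against 10.1% of autosomal entries of the same rule. Of the 208 summits, 131 (63.0%) lay upstream of that 5′ end and the others downstream, against 62.1% upstream on autosomes. Just inside the 500 bp limit were the sites near act-4, an actin gene (518 bp, signal 238), F55D10.4 (531 bp, 143), unc-9 (537 bp, 141), bet-2, a bromodomain gene (542 bp, 313), and C16H3.3 (549 bp, 109.8). Just outside it were X entries near F13C5.1 (486 bp, 119.9), bcat-1 (483 bp, 112), ptrn-1 (470 bp, 115), F57G12.1 (465 bp, 195) and unc-1 (447 bp, 148). The 2 sets overlapped in signal. No site lay within 250 bp of a snoRNA or snRNA gene, against 7.71% of autosomal entries of the same rule and 4.67% of all entries. Other X entries were also rarely near one, with 1 of the 136 promoter entries and none of the 62 near tRNA genes. A gene annotated as ncRNA lay within 250 bp of 46 sites (22.1%), against 22.02% of autosomal entries of the same rule. The highest of those 46 were the ftt-2, ldb-1 and C30E1.4 sites.

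The sites were spread over the whole of X, from summit 324210 to summit 17610597 of a chromosome of 17718942 bp. Each of 36 bins of 500 kb held at least 1 site, with a median of 6. The density was 11.7 per Mb, compared with 8.64 per Mb for autosomal entries of the same rule, 11.2 on III, 11.1 on I, 8.31 on II, 8.29 on IV and 5.64 on V. Neighbouring summits were a median of 34.9 kb apart, with quartiles of 5.53 and 103 kb, and 49 of the 207 gaps were under 5 kb. Some of these short gaps lie inside 1 region, since 36 sites overlap another site. With overlapping sites merged, the median gap was 42.6 kb. The gaps between the 17 highest sites had a median of 1039.6 kb and ranged from 282 to 1739.8 kb. The middle 50% of the chromosome's length held 91 sites (43.8%) and 11 of the 25 highest.

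The densest 500 kb, from 1000001 to 1500000, held 12 sites. Its 2 highest were the ins-39 site (436) and the F56C3.1 site (319), which overlaps a second entry with a signal of 132. The others lay near pigx-1, a gene of GPI anchor synthesis (284), unc-1, a stomatin-like gene (225), pdk-1, a kinase gene of insulin signalling (163), nlf-1 (153.9), cebp-1 (153.5), inso-1 (148), F55A4.3 (116), ncs-3, a neuronal calcium sensor gene (113), and rei-2 (112). Only the ins-39 site in this bin carried the MEX core. The gene with most sites nearest to it was mdl-1, with 5 between summits 6739694 and 6750309, and their signals ran from 114 to 200.2.

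Genes that count X chromosomes or set sex and dosage compensation lie on X, and their distance to the nearest of the 208 sites varied widely. The nearest site was 4893 bp from the 5′ end of xol-1 and 18281 bp from that of ceh-39, an X signal element. It was 35731 bp from sdc-2, which directs the dosage compensation complex to X, 69690 bp from sdc-1, 76707 bp from fox-1, which regulates xol-1 splicing, and 205598 bp from sex-1, a repressor of xol-1. Only the xol-1 site was among the 25 highest, and the signals of the other 5 nearest sites ran from 112 to 184. Promoter entries, which the rule leaves out, were present at sdc-2 (138) and fox-1 (103.7). The symbol sex-2 of this list was not matched to the annotation.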

How the data were processed

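ChIP-seq of tagged HIM-1 in 2 biological replicates of 1 group was used as deposited narrowPeak lists. Per the text deposited with each sample, each replicate's list and a pooled list in ce11 hold peaks and background as input for IDR, and the optimal list was derived from them. The signal value and the −log10 q-value of each entry are the authors' deposited values. The aligner, peak caller and IDR cutoff are not named in the sources used here. The ce10 lists were not used here.

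Summits were set against Ensembl release 115 (WBcel235), and sequence was read from RefSeq (WBcel235). A site's replicate value is the highest overlapping entry. Features were taken in the order coding sequence, UTR, intron and outside protein-coding genes. Words were matched exactly, on both strands, up to 100 bp from the summit, and X was tiled in windows of the same length for comparison. Sites were named by rule: the 25 highest, the 3 lowest, the 3 highest per feature or near a non-coding RNA gene, the 3 most unequal at each end, the densest 500 kb and the sites nearest 7 genes. The members, lists and comparisons were chosen with earlier results of these data known. Functions were checked on simulated data. Computation used SciPy 1.17.1 and NumPy 2.4.6 in Python 3.11.15, and plots were drawn with matplotlib 3.10.9.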

Additional observations from a re-analysis of the deposited data

How the results depend on the processing

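Of 117 recomputed values, 107 stayed within the 95% interval set around the reported value, or within 1.5 times for a count of sites. None changed direction, but plain counts, medians and shares have no direction to change. The interval used for the X to autosomal signal ratio of 1.08 ran from 0.993 to 1.19. It was taken over sites and not over worms, and served only to sort the recomputed values, so it tests no difference. The recomputed settings covered limits of 250 and 1000 bp from 5′ ends, 0 (summit outside the gene) and 500 bp from tRNA genes, distance from snoRNA and snRNA genes, and merging of overlapping sites. With entries at the highest q-value only, the median signal was 183, the share of sites in both replicates' top entries 92.9% and the median gap 50.7 kb. With each replicate's own list in place of the pooled one, the median signal was 67.6 to 91.6, on those lists' own scales. Requiring summits within 100 bp gave a shared fraction of 69.2%. A window of 200 bp around the summit gave a median GC content of 43.9%. The GAGA repeat was at 4.81% of sites within 50 bp and 16.3% within 200 bp. Without the 17 highest sites, a setting chosen after seeing the data, the MEX core was at 3.66% of sites. No paired analysis was possible because there was 1 group. Depth is unknown, so no value could be adjusted for it.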

Other observations

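Besides the MEX core and its variant, the words of 8 letters with the largest excess at the 208 X sites over the other 1589 optimal entries included A-rich words. AAAGAAGA was at 31 sites (14.9%) against 8.37% of the other entries, GAAGAAAA at 29 (13.9%) against 9.19%, and AGAAAATG at 19 (9.13%) against 4.22%. The word CCCTCTTC was at 16 sites (7.69%) against 2.33%. These words were picked for their excess, so the shares are descriptions with no test.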
